A study of Homo sapiens with 12 samples.

Results

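The genes described here are 10 transcription factor genes of the AP-1 and immediate early group: JUN, JUNB and JUND, FOS, FOSB, FOSL1 and FOSL2, ATF3, MAFF and EGR1. They were chosen by name from the gene symbols of the count table, which holds 58735 genes, and each matched 1 row. All 10 were among the 17290 genes with enough reads to be tested. RNA had been sequenced from U2OS, an established human osteosarcoma cell line, kept for 24 h with 1 of 4 treatments: DMSO as the solvent control, TH10785 at 10 µM, PNKP1i at 10 µM, or the pair of compounds at 10 µM each. Each of these 4 groups had 3 libraries, and the labels name no genetic change in any of them. The title of the series concerns small-molecule activation of OGG1, a DNA glycosylase that starts the repair of oxidised bases, and the labels do not describe PNKP1i further. The labels do not say whether the replicates were separate cultures, so a p-value here measures only the spread between these libraries, which may be technical.

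AP-1 is a dimer held together by leucine zippers, usually of a JUN protein with a FOS, ATF or MAF family protein, and it binds short palindromic DNA elements. JUN proteins can pair with each other, whereas FOS proteins generally need a partner of another family, most often JUN. The supply of each family member therefore shapes which dimers a cell can form. Many of these genes are transcribed within minutes of a growth factor or stress signal, through ERK, JNK and p38 kinases and through serum response factor, and they then fall back. EGR1 is a zinc finger factor induced by the same signals. All libraries here were taken at 24 h, and earlier times were not measured.

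Depth ran from 16225339 to 21546369 counts per library. In the combination libraries, genes of over 60% GC lay lower and genes under 40% GC higher than in DMSO: the medians of the libraries were -0.37 to -0.34 and 0.46 to 0.80 on the log2 scale. Replicate 3 of TH10785 stood apart the other way, at 0.22 for genes of over 60% GC and -0.63 for those under 40% GC. The sum of 9 mesenchymal and osteoblast markers was 4320 to 5170 CPM (a library's counts of a gene relative to its total, on the usual scale and adjusted between libraries by TMM) in DMSO, 4100 to 4780 with TH10785, 4550 to 4650 with PNKP1i and 2220 to 2770 with both. None of the 9 was at 0 in all 12 libraries, and 3, COL1A2, SP7 and BGLAP, averaged under 1 CPM. Of the 6 that could be tested, 5 fell with both compounds against DMSO and 1 rose, where 19.7% and 21.3% of all tested genes did. COL1A1 fell by 1.27, SPARC by 0.91 and COL5A1 by 0.80 on the log2 scale, and ALPL rose by 1.47. The sum of 10 markers of blood, epithelial and endothelial cells was 9.87 to 11.1 CPM in DMSO, 10.4 to 12.3 over the TH10785 libraries, 9.04 to 10.4 over the PNKP1i libraries and 7.5 to 9.59 in the combination, which lay below DMSO with no overlap. Of these 10 markers, 3 were at 0 in every library and 5 could be tested. VWF, an endothelial marker, fell with both compounds, from 3.11 ± 0.00549 to 0.898 ± 0.391 CPM (SD, n = 3; log2 -1.78, adjusted p = 0.000543, edgeR), and the other 4 were not called. The part of these shifts in the results for the 10 genes was not tested, except for GC content, which an alternative fit took into account. In bulk RNA, a change in the share of cells that use a gene and a change in its RNA per cell cannot be told apart.

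With both compounds, MAFF, EGR1, FOS, FOSL1 and ATF3 rose and FOSL2, JUND and JUN fell against DMSO. Thus 8 of the 10 genes passed an adjusted p of 0.05 in edgeR's quasi-likelihood test with Benjamini-Hochberg adjustment over all tested genes, 5 higher and 3 lower. In the same comparison 41% of all tested genes passed, 21.3% higher and 19.7% lower. The median log2 fold change of the 10 genes was 0.54, beside 0.04 over all tested genes. For 9 of the 10 genes the 3 combination libraries did not overlap the 3 DMSO libraries, as was the case for 53.6% of all tested genes. Neither compound alone gave a call in any of the 10 genes in this edgeR fit over 12 libraries, nor with limma-voom. DESeq2 and edgeR with no low-count filter each called ATF3 with TH10785, and some other edgeR fits called EGR1, JUNB or FOS with PNKP1i, as given below for each gene. The background was low in those comparisons, with 0.561% of tested genes called for TH10785 and 0.197% for PNKP1i. At an unadjusted p under 0.05 there were 2 of the 10 genes with TH10785, ATF3 and MAFF, and 4 with PNKP1i, namely EGR1, JUNB, FOS and FOSL2. All tested genes were not counted at that unadjusted threshold, so these numbers have no background beside them. With TH10785, 2 of the 10 genes did not overlap DMSO, ATF3 and MAFF, both higher, where 19.7% of all tested genes did not. With PNKP1i, 5 did not overlap DMSO, EGR1, FOS, JUNB and MAFF above it and FOSL2 below it, where 25.9% of all tested genes did not.

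**Figure D1:**
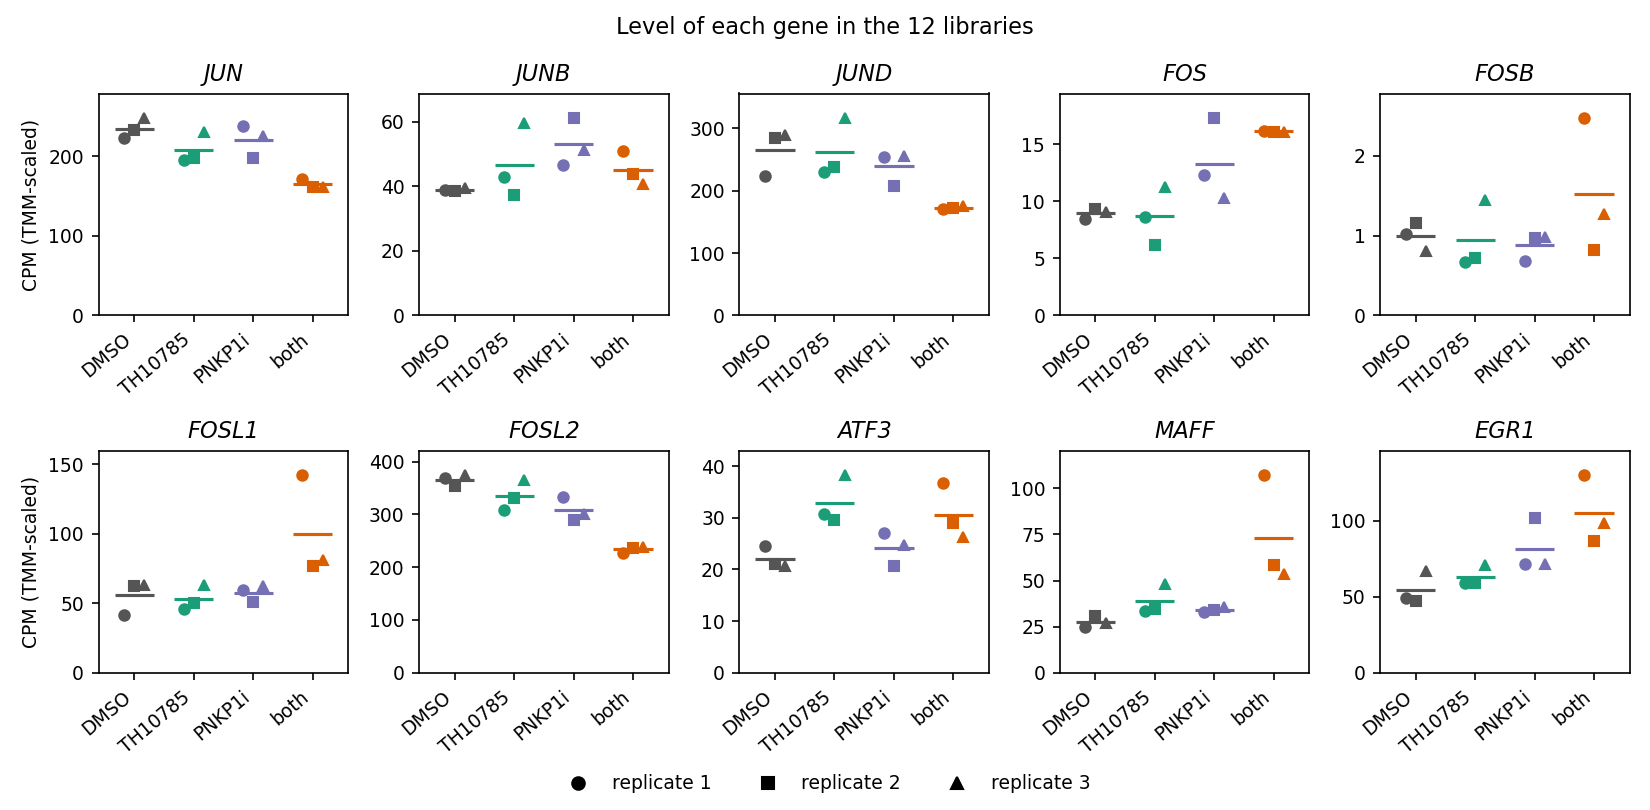
TMM-scaled CPM of each of the 10 genes (vertical axes, linear and starting at 0) in the 12 libraries, grouped as DMSO, TH10785, PNKP1i and both compounds, with the replicate number as the symbol and the group mean as a line. JUN, JUND and FOSL2 are lowest in all 3 combination libraries, whereas replicate 1 of the combination is well above its partners for FOSL1 and MAFF (142 against 77.1 and 81.2 CPM, and 107 against 58.6 and 53.5 CPM).

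Promoter sequence was read from RefSeq (GRCh38.p14), as windows from 250 bases before to 50 bases after each start site, which were at hand for 9 of the 10 genes. ATF3 and MAFF had 2 windows each, and the sites shown for them are in the first. RefSeq starts can differ from the GENCODE 29 gene positions given below. All 150 bases before the start lay in GENCODE 29 exons of the gene for JUN and MAFF. The number was 73 for the first ATF3 window, 54 for FOS and 35 for FOSL2. The first sites shown are those that a gene that rose shares with a gene that fell. The CRE, TGACGTCA, is bound by ATF and JUN dimers and was searched on both strands, as were all motifs here. It was found in the windows of MAFF (chr22:38201929-38201958, plus strand) and JUND (chr19:18281804-18281833, minus strand) and in 1.84% of all 34943 windows. The related TGACATCA was found in those of ATF3 (chr1:212565273-212565302, plus strand) and JUN (chr1:58784096-58784125, minus strand) and in 2.61% of all windows. The motif is in capitals.
MAFF: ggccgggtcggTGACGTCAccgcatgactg
JUND: ggccgcccccaTGACGTCAacccacaaggc
ATF3: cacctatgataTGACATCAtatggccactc
JUN: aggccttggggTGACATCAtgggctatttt
The pairs were picked because 1 gene of each rose and the other fell, so their opposite signs are no result. The JUND call was lost with GC and length offsets and the ATF3 call without any of 3 single libraries, as given below. A match is only a match of letters, and no binding was measured.

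EGR1 held 2 CArG boxes, the element of serum response factor, within 60 bases (chr5:138465360-138465419, plus strand; boxes in capitals). A CArG box was found in 1.3% of all windows, and in no window of the other 8 genes with one. Sequence farther than 250 bases before a start was not searched, so boxes there would have been missed.
EGR1: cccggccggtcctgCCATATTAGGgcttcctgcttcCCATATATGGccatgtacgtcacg
FOS, FOSB and JUNB held a TATAAA shortly before the start, which 11.6% of all windows hold somewhere (chr14:75278783-75278812, chr19:45467954-45467983 and chr19:12791443-12791472, plus strand; motif in capitals).
FOS: taaaacgcttgtTATAAAagcagtggctgc
FOSB: gggtcccgggcaTATAAAtacaggctggcg
JUNB: tgactagcgcggTATAAAggcgtgtggctc
The AP-1 element TGACTCA, found in 4.96% of all windows, was in that of FOSL2, from base 5 to base 11 after the start. The EGR element, as GCGGGGGCG or GCGTGGGCG, is in 5.76% of all windows and was in none of these. Of the 5 genes just named, EGR1 and FOS rose, FOSL2 fell, and FOSB and JUNB were not called. The second window of ATF3 also held a TATAAA, from base -230 to base -225.

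JUN (ENSG00000177606, GRCh38 chromosome 1, 58780788 to 58784327, minus strand) encodes c-Jun, the founding partner of AP-1. In order of replicate number, the DMSO libraries held 223, 233 and 248 CPM of JUN and the TH10785 libraries 196, 198 and 230. PNKP1i gave 238, 198 and 225 CPM, and the combination 171, 161 and 162. The 3 combination libraries lay below the other 9, and the single-compound libraries overlapped the DMSO range. From 235 ± 12.7 to 165 ± 5.85 CPM (SD, n = 3), JUN was 1.43-fold lower with both compounds than in DMSO (log2 -0.51, SE 0.11, adjusted p = 0.00189, edgeR's quasi-likelihood test). It was also lower with both than with TH10785 (log2 -0.34, SE 0.11, adjusted p = 0.0227 by the same test) and than with PNKP1i (log2 -0.42, SE 0.11, adjusted p = 0.00578). In a fit with per-library offsets for GC content and transcript length, the fall against DMSO was -0.28 (adjusted p = 0.0277), and the differences from TH10785 and PNKP1i were -0.06 and -0.09 and did not pass. The difference from TH10785 also failed without TH10785 replicate 3 (adjusted p = 0.0642), without combination replicate 2 (0.0526), without combination replicate 3 (0.0647), with no low-count filter (0.0675) and with only the groups compared (0.0711).

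JUND (ENSG00000130522, chromosome 19, 18279760 to 18281622, minus strand), the JUN protein that most resting cells hold steadily, was at 223, 285 and 289 CPM in DMSO. It was at 230, 237 and 316 CPM with TH10785 and at 254, 207 and 256 CPM with PNKP1i. With both compounds it was at 170, 172 and 175 CPM, below all 9 other libraries. JUND fell from 266 ± 37 to 172 ± 2.33 CPM, 1.54-fold (log2 -0.62, SE 0.14, adjusted p = 0.00247, edgeR). JUND has the highest GC content of the 10 transcripts, at 69.7%, and with offsets for GC content and length its difference from DMSO was -0.18 and did not pass (adjusted p = 0.168). Against the single compounds its differences were -0.60 for TH10785 and -0.47 for PNKP1i, both called, and with the offsets -0.19 (adjusted p = 0.155) and -0.07 (adjusted p = 0.641). The JUND difference from PNKP1i also missed the threshold without PNKP1i replicate 1 (adjusted p = 0.0563) or replicate 3 (0.0552).

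JUNB (ENSG00000171223, chromosome 19, 12791496 to 12793315, plus strand), a JUN protein with weaker activity on many AP-1 sites, gave no call. It was tightly grouped in DMSO, at 38.9, 38.5 and 39.4 CPM. The levels were 43, 37.3 and 59.6 CPM with TH10785, and 46.5, 61.1 and 51.3 with PNKP1i. The combination libraries held 50.9, 43.7 and 40.6 CPM. All PNKP1i and all combination libraries were above the DMSO range, although the difference of the combination was 0.21 on the log2 scale (95% interval -0.13 to 0.54, adjusted p = 0.309, edgeR) and that of PNKP1i 0.44 (interval 0.11 to 0.78, adjusted p = 0.352). The JUNB difference with PNKP1i passed with only the groups compared (0.46, adjusted p = 0.00833) and without TH10785 replicate 3 (0.46, adjusted p = 0.0476). With the GC and length offsets, the combination differed from DMSO by 0.56 and passed (adjusted p = 0.00335); the JUNB transcript holds 64.9% GC. JUNB shares 259 bases of exon with HOOK2 on the opposite strand, and reads from the pair cannot be told apart unless strand was used in counting, which is not stated. HOOK2 had 5084 counts over the 12 libraries.

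FOS (ENSG00000170345, chromosome 14, 75278774 to 75282230, plus strand) encodes c-Fos, the classic immediate early protein, and its RNA was scarce here, with 120 to 356 counts per library. It was at 8.44, 9.35 and 9.05 CPM in DMSO and at 8.64, 6.21 and 11.3 CPM with TH10785. With PNKP1i it was at 12.3, 17.3 and 10.3 CPM, and with both at 16.2, 16.1 and 16.1 CPM. The PNKP1i and the combination libraries were all above DMSO, and they overlapped each other. FOS rose 1.8-fold with both compounds (log2 0.85, SE 0.21, adjusted p = 0.00484, edgeR). The PNKP1i difference of 0.57 (SE 0.21) had an adjusted p of 0.369, and with only the groups compared it was 0.58 and passed (adjusted p = 0.029). Both compounds differed from PNKP1i by 0.28 (95% interval -0.16 to 0.72, adjusted p = 0.284). Both compounds exceeded TH10785 by 0.89 (SE 0.21, adjusted p = 0.0038).

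FOSL1 (ENSG00000175592, chromosome 11, 65892049 to 65900573, minus strand) encodes FRA-1, a FOS protein without the strong activation domain of c-Fos that is abundant in many invasive tumour cells. Its levels were 41.5, 62.1 and 63.5 CPM in DMSO, 46, 50.4 and 62.9 with TH10785, and 59.4, 51.1 and 62.4 with PNKP1i. With both compounds they were 142, 77.1 and 81.2 CPM, so the 9 other libraries overlapped one another and the 3 combination libraries stood above them. FOSL1 rose 1.8-fold against DMSO (log2 0.85, SE 0.21, adjusted p = 0.00453, edgeR), by 0.91 against TH10785 (adjusted p = 0.0029) and by 0.80 against PNKP1i (adjusted p = 0.00551). Without combination replicate 1 the rise against DMSO was 0.52 and still passed.

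FOSL2 (ENSG00000075426, chromosome 2, 28392448 to 28417312, plus strand) encodes FRA-2, which takes part in bone cell differentiation, and it moved the opposite way to FOSL1. It was at 369, 354 and 374 CPM in DMSO, 309, 331 and 365 with TH10785, and 334, 290 and 300 with PNKP1i. The combination libraries held 227, 236 and 238 CPM. The combination libraries were the lowest 3 of the 12, and the PNKP1i libraries lay between them and DMSO with no overlap on either side. FOSL2 fell from 366 ± 10.6 to 233 ± 5.77 CPM with both compounds, 1.57-fold (log2 -0.65, SE 0.11, adjusted p = 0.000252, edgeR). The PNKP1i difference was -0.25 (SE 0.11) with an adjusted p of 0.417. Both compounds were lower than TH10785 by -0.52 (adjusted p = 0.0015) and lower than PNKP1i by -0.40 (adjusted p = 0.0063) on the log2 scale. With GC and length offsets the value against PNKP1i was -0.21 and did not pass (adjusted p = 0.0843), and that against DMSO was -0.46 and did.

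FOSB (ENSG00000125740, chromosome 19, 45467995 to 45475179, plus strand), the FOS gene best known from neurons and bone, had 11 to 51 counts per library. DMSO libraries ranged from 0.803 to 1.16 CPM, TH10785 libraries from 0.674 to 1.44 and PNKP1i libraries from 0.677 to 0.988. In the combination it was 2.47, 0.824 and 1.27 CPM. The groups overlapped, and the difference of the combination from DMSO was 0.61 with a 95% interval of -0.25 to 1.48 (adjusted p = 0.245, edgeR). Against PNKP1i the combination differed by 0.78 (adjusted p = 0.13), and this passed with the GC and length offsets (1.12, adjusted p = 0.0375) and without combination replicate 2 (1.08, adjusted p = 0.0401).

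ATF3 (ENSG00000162772, chromosome 1, 212565334 to 212620777, plus strand) encodes a stress-induced factor that represses many genes as a homodimer and can activate with JUN. Its levels were 24.5, 21 and 20.6 CPM in DMSO, 30.8, 29.5 and 38.2 with TH10785, and 27.1, 20.6 and 24.7 with PNKP1i. The combination libraries held 36.7, 28.9 and 26.3 CPM. The libraries with TH10785, alone or in the combination, were all above DMSO, and the PNKP1i libraries overlapped DMSO. ATF3 rose 1.39-fold with both (log2 0.48, SE 0.16, adjusted p = 0.0249, edgeR). The TH10785 difference was 0.58 (SE 0.16) with an adjusted p of 0.121. The combination differed from TH10785 by -0.10 (95% interval -0.43 to 0.23). The ATF3 call with both compounds was lost without combination replicate 1 (log2 0.34, adjusted p = 0.118), without DMSO replicate 2 (adjusted p = 0.0877) and without DMSO replicate 3 (0.0864). DESeq2 and a fit without the low-count filter each called ATF3 with TH10785 alone (adjusted p = 0.0411 and 0.0268).

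MAFF (ENSG00000185022, chromosome 22, 38200767 to 38216511, plus strand) encodes a small MAF protein, which has a zipper and no activation domain and pairs with NRF2, BACH and FOS proteins. It was at 24.6, 31 and 27 CPM in DMSO, 33.5, 34.4 and 48.2 with TH10785, and 32.9, 34.1 and 35.8 with PNKP1i. Both compounds together gave 107, 58.6 and 53.5 CPM. Every treated library was above every DMSO library, and every combination library above every single-compound one. MAFF rose 2.65-fold with both (log2 1.40, SE 0.21, adjusted p = 0.000124, edgeR), the largest change of the 10 genes, and the value without combination replicate 1 was 1.04. The rise against TH10785 was 0.91 (adjusted p = 0.00295) and against PNKP1i 1.09 (adjusted p = 0.000781). The differences with TH10785 alone, 0.49 (SE 0.21, adjusted p = 0.306), and with PNKP1i alone, 0.31 (SE 0.21, adjusted p = 0.574), did not pass.

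EGR1 (ENSG00000120738, chromosome 5, 138465490 to 138469315, plus strand) was at 49.2, 47.3 and 67.3 CPM in DMSO, 59.1, 59.3 and 71.1 with TH10785, and 71.9, 102 and 71.7 with PNKP1i. The combination libraries held 130, 86.8 and 98.8 CPM. The PNKP1i and the combination libraries were above the DMSO range and overlapped each other, and the TH10785 libraries overlapped DMSO. EGR1 rose 1.93-fold with both (log2 0.95, SE 0.18, adjusted p = 0.000651, edgeR) and by 0.74 against TH10785 (adjusted p = 0.00371). The PNKP1i difference from DMSO was 0.58 (SE 0.18, adjusted p = 0.273), and it passed at 0.60 with no low-count filter (adjusted p = 0.00947) and with only the groups compared (adjusted p = 0.0329). Both compounds differed from PNKP1i by 0.37 (SE 0.17, adjusted p = 0.097), and with GC and length offsets this value was 0.66 and passed (adjusted p = 0.0152). It also passed with no low-count filter (0.37, adjusted p = 0.043), without PNKP1i replicate 2 (0.55, adjusted p = 0.0258) and without combination replicate 2 (0.49, adjusted p = 0.0393).

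**Figure D2:**
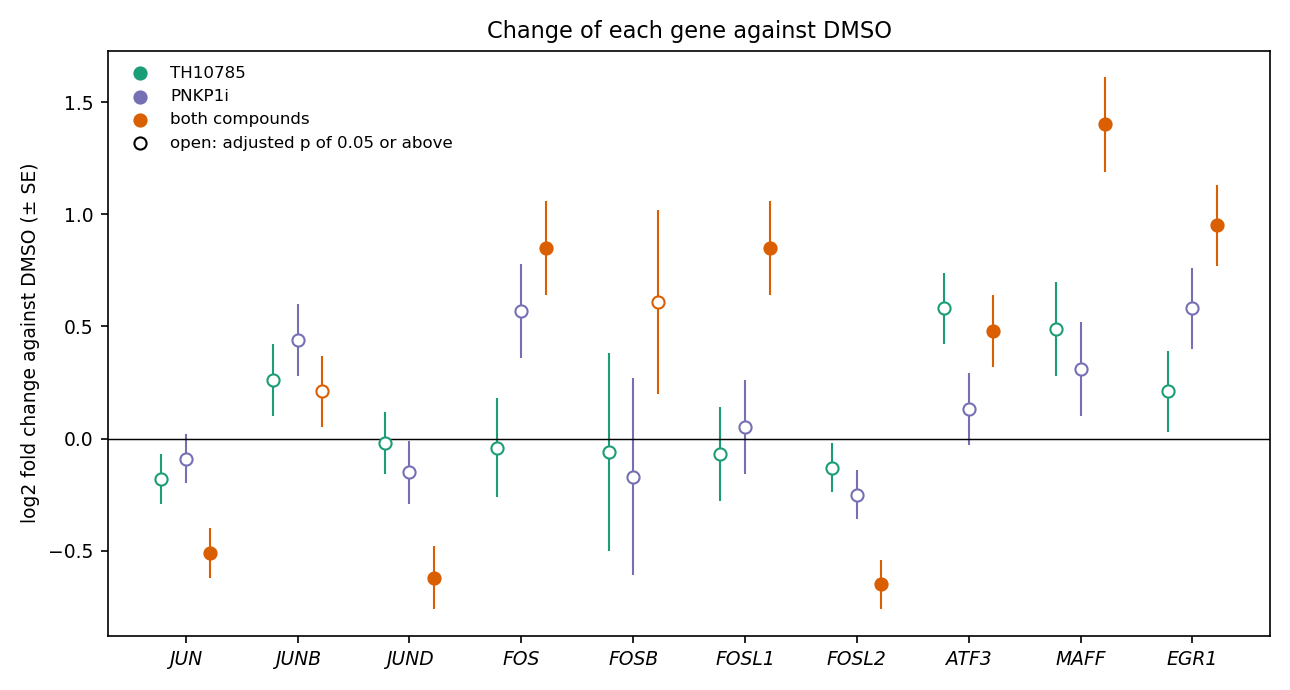
Log2 fold change against DMSO (vertical axis, points with bars of 1 SE) of each of the 10 genes for TH10785, PNKP1i and both compounds, from edgeR's fit over 12 libraries; filled points have an adjusted p under 0.05. All filled points belong to the combination, from -0.65 for FOSL2 to 1.40 for MAFF.

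The comparisons of the combination with each single compound share the combination libraries with one another and with the comparison against DMSO. Against TH10785, 7 of the 10 genes were called, 4 higher (FOSL1, MAFF, FOS and EGR1) and 3 lower (JUND, FOSL2 and JUN), where 42.3% of all tested genes were called, 22.7% higher and 19.7% lower. Against PNKP1i, 5 were called, 2 higher (MAFF and FOSL1) and 3 lower (JUND, JUN and FOSL2), where 46% of all tested genes were, 24.4% higher and 21.5% lower. With the GC and length offsets in edgeR, FOS (0.48, adjusted p = 0.0467), EGR1 and FOSB (1.12, adjusted p = 0.0375) also passed against PNKP1i, beside MAFF and FOSL1. The 3 falls did not pass in that fit. The shares of all tested genes given here are from the fit without offsets. Between the single compounds, TH10785 and PNKP1i, none of the 10 genes was called by edgeR, DESeq2 or limma-voom. Of all tested genes, 0.902% were called by edgeR. FOS and ATF3 had an unadjusted p under 0.05, a threshold at which all tested genes were not counted. Relative to PNKP1i, TH10785 gave a FOS difference of -0.61 (SE 0.21, adjusted p = 0.334) and an ATF3 difference of 0.44 (SE 0.16, adjusted p = 0.344). Without TH10785 replicate 3 the FOS difference was -0.85 and passed (adjusted p = 0.0284).

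The interaction asks whether the combination differs from the sum of the single log2 changes. FOSL1 alone among the 10 genes passed, at 0.87 (SE 0.30, adjusted p = 0.0357, edgeR), where 30.6% of all tested genes did. Its single-compound differences from DMSO were -0.07 for TH10785 and 0.05 for PNKP1i, beside 0.85 for both. The FOSL1 interaction passed in 9 of 20 alternative fits. It was lost with limma-voom, with the replicate number as a block and in 9 of the 12 fits that left out a library, the lowest value being 0.52 without combination replicate 1 (adjusted p = 0.107). For MAFF the interaction was 0.60 (SE 0.30, adjusted p = 0.135), for JUND -0.45 (SE 0.20, adjusted p = 0.0965) and for JUNB -0.49 (SE 0.22, adjusted p = 0.102). That of MAFF passed with the GC and length offsets (0.99, adjusted p = 0.0347), that of JUND without TH10785 replicate 1 (-0.56, adjusted p = 0.0435) and that of JUNB without TH10785 replicate 2 (-0.64, adjusted p = 0.039). The values of FOS (0.32), EGR1 (0.16) and ATF3 (-0.23) had adjusted p from 0.442 to 0.666. For EGR1 the 95% interval ran from -0.37 to 0.68, so that departures from additivity in either direction lie within it.

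To compare levels between genes, CPM was divided by the length of the gene's merged exons in kilobases. In DMSO the order by CPM per kb was JUND (143), JUN (66.3), FOSL2 (51.1), FOSL1 (29.5), JUNB (21.4), EGR1 (17.4), ATF3 (5.45), MAFF (4.91), FOS (2.76) and FOSB (0.179). The gap between ATF3 and MAFF, at 5.45 ± 0.526 and 4.91 ± 0.574 CPM per kb, was within the SD of MAFF. The order was the same with TH10785, and with PNKP1i only MAFF (6.1) and ATF3 (5.97) changed places. With both compounds FOSL1 stood second at 53.1 ± 19.3, within its SD of JUN at 46.5 ± 1.65. EGR1 came next, at 33.6 ± 7.14, within its SD of FOSL2 at 32.6 ± 0.807. MAFF, at 13 CPM per kb, stood above ATF3 at 7.59.

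The make-up of the FOS family differed in the combination libraries. On the CPM per kb scale, FOSL2 held 57.9% to 67.5% of the family's summed level in DMSO, 57.9% to 61.7% with TH10785, 53.5% to 56.9% with PNKP1i and 28.2% to 41.8% with both. FOSL1 held 28.8% to 38.5% in DMSO, 34.7% to 37.8% with TH10785, 37% to 42.2% with PNKP1i and 51.8% to 67% with both. In all 9 other libraries FOSL2 exceeded FOSL1, and in all 3 combination libraries FOSL1 exceeded FOSL2. The ratio of FOSL1 to FOSL2 was 0.426, 0.666 and 0.643 in DMSO, and it ranged from 0.565 to 0.653 over the TH10785 libraries and from 0.667 to 0.788 over the PNKP1i libraries. In the combination it was 2.38, 1.24 and 1.3. FOS held 3.14% to 3.42% in DMSO, 2.56% to 3.97% with TH10785, 4.05% to 7.29% with PNKP1i and 4.45% to 6.29% with both. Its share with both thus lay within the range of PNKP1i alone. FOSB held under 0.4% in every library.

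The JUN family kept nearer to its make-up while its sum was lower. Its summed level was 204 to 247 CPM per kb in DMSO, 203 to 267 with TH10785, 200 to 229 with PNKP1i and 162 to 168 with both. JUND's share was 58.6% to 63.7% in DMSO, 61% to 63.4% with TH10785, 55.4% to 59.9% with PNKP1i and 54.5% to 58% with both. In the same order, JUN held 27.4% to 30.9%, 24.3% to 27.4%, 27.8% to 29.4% and 28.1% to 28.9%. JUNB held 8.77% to 10.5%, 10.1% to 12.3%, 11.2% to 16.8% and 13.8% to 16.7%. The ranges of JUND and JUNB with PNKP1i alone overlapped those of the combination. The summed JUN family stood at 2.67 to 2.81 times the summed FOS family in DMSO, 2.71 to 3.03 times with TH10785, 2.74 to 2.92 times with PNKP1i and 1.49 to 2.05 times with both. These ratios are of RNA and are given as a description of the values tested above. The family levels were not adjusted for GC content. With the GC and length offsets, the JUND difference of the combination from DMSO was -0.18 and did not pass (adjusted p = 0.168, edgeR). JUN differed by -0.28 and JUNB by 0.56 in that fit, and both passed.

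**Figure D3:**
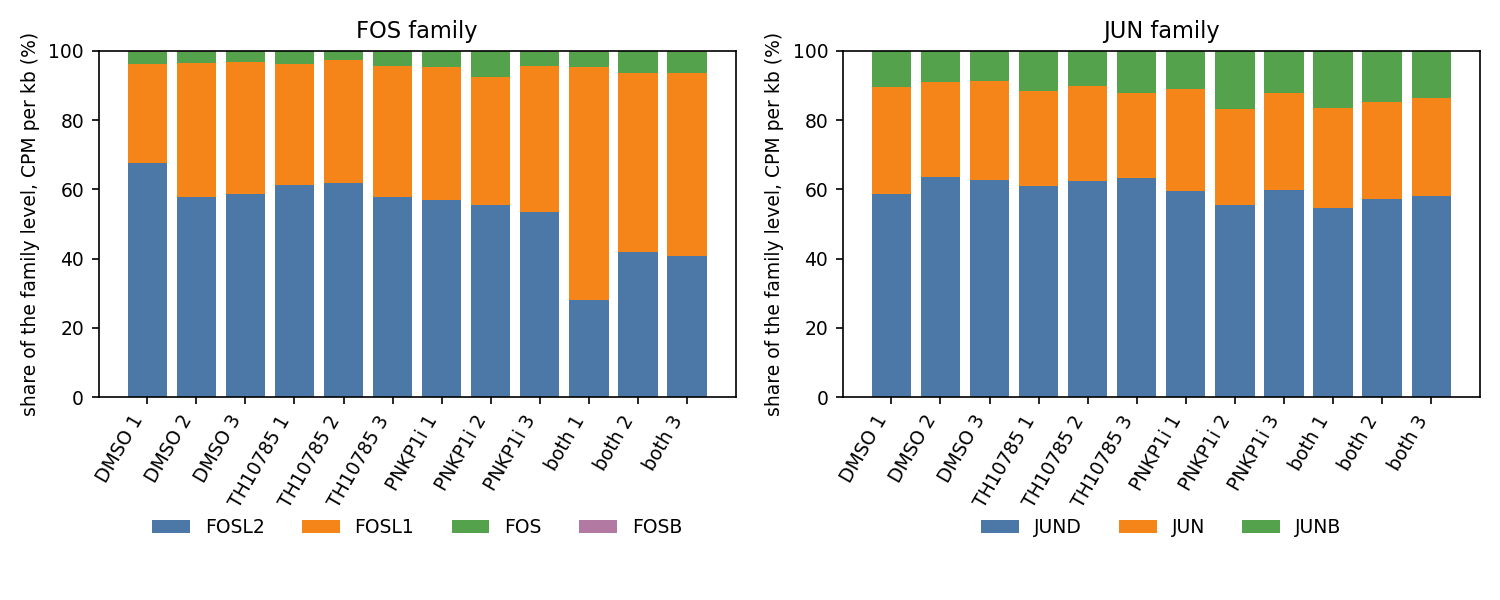
Share of each gene in the summed CPM per kb of its family (stacked bars to 100%), for the FOS family (left) and the JUN family (right), in each of the 12 libraries. FOSL1 takes 51.8% to 67% of the FOS family in the 3 combination libraries and at most 42.2% elsewhere; FOSB is too low to be seen.

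Libraries of a group did not move alike. Replicate 1 of the combination was the highest of its group in 8 of the 10 genes, against 34.4% of all tested genes. Its level was 2.36 times the mean of its 2 partners for FOSB, 1.9 times for MAFF, 1.8 times for FOSL1, 1.4 times for EGR1 and 1.33 times for ATF3. For FOS, JUN, FOSL2 and JUND that ratio was 0.958 to 1.06. Without this library the ATF3 call against DMSO was lost, and the calls of the other 7 genes held. Replicate 3 of TH10785 was the highest of its group in 10 of 10 genes, where it was so in 42% of all tested genes.

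The calls of FOS, FOSL1, FOSL2, JUN, MAFF and EGR1 for the combination against DMSO held in 21 of 21 alternative fits. Their ranges were 0.52 to 1.10 for FOSL1, 1.04 to 1.82 for MAFF, 0.78 to 1.13 for EGR1, -0.68 to -0.46 for FOSL2 and -0.55 to -0.28 for JUN. The JUND call held in 20 of the 21 and the ATF3 call in 18.

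**Figure D4:**
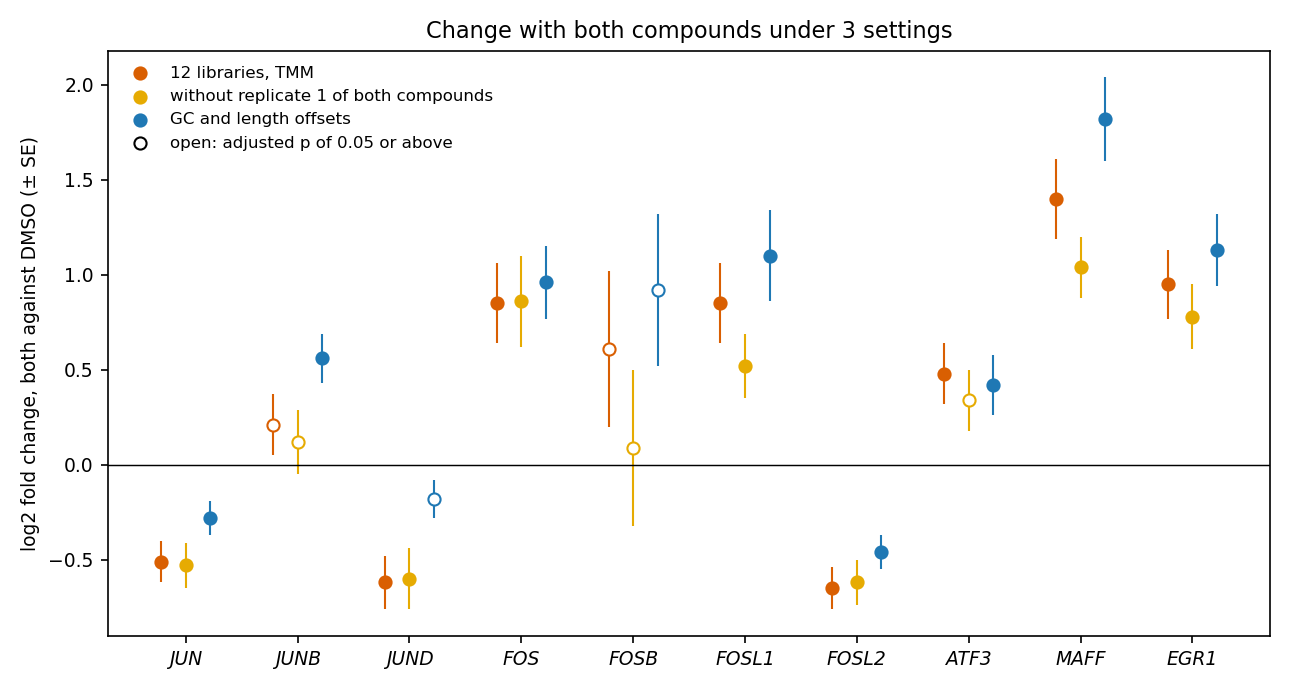
Log2 fold change of both compounds against DMSO (vertical axis, points with bars of 1 SE) of each of the 10 genes in the fit over 12 libraries, in the fit without combination replicate 1, and in the fit with GC and length offsets; open points have an adjusted p of 0.05 or above. With the offsets JUND moves from -0.62 to -0.18 and JUNB from 0.21 to 0.56, and without the library MAFF moves from 1.40 to 1.04.

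Over the 12 libraries, each gene's profile of log2 CPM was compared with every other tested gene that averaged at least 1 on that scale. The points share their libraries, groups and depth, and Pearson's r is given as a description with no test. JUN was most like ABL1 (r = 0.991), JUND most like CDIP1 (0.987), FOSL2 most like ANKRD52 (0.986) and MAFF most like PPP1R15A (0.984). FOSL1 was most like SLC43A3 (0.969), ATF3 most like DUSP3 (0.968), EGR1 most like SLC20A1 (0.946), FOS most like SMPD3 (0.917), JUNB most like GLMP (0.916) and FOSB most like LHX5 (0.906). Among the 10 themselves, JUN stood nearest to JUND and to FOSL2 (r = 0.91 for each), FOSL1 nearest to MAFF (0.90) and FOS nearest to EGR1 (0.84). JUNB had no near member, its highest r being 0.56 with FOS.

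Genes around the 10 were followed in lists. Of 13 tested genes for other AP-1 and basic zipper partners, 4 rose and 3 fell with both compounds against DMSO. Of all tested genes, 21.3% rose and 19.7% fell in that comparison. The median log2 fold change of the 13 was 0.25. BACH1, a repressor that pairs with small MAF proteins, lay between 12.9 and 16.1 CPM in DMSO and between 21.9 and 38 CPM with both (log2 1.12, SE 0.25, adjusted p = 0.00242, edgeR). ATF7, a partner of JUN and FOS related to ATF2, fell by 0.62 on the log2 scale, MAF by 0.75 and MAFK, a small MAF gene like MAFF, by 0.54. With GC and length offsets the values were 0.53 for BACH1, -0.57 for ATF7 and -0.79 for MAF, all called. The MAFK value was -0.12 in that fit and did not pass (adjusted p = 0.345). Without combination replicate 1 the number of partners that rose was 1, and without DMSO replicate 3 it was 2. With TH10785 alone, ATF7 was at 15.8 to 18.7 CPM, below its 23.4 to 26 CPM in DMSO. MAF was at 18 to 24.8 CPM, below 25.5 to 29.4 CPM, and BACH1 and MAFK overlapped DMSO. None of these was called with TH10785 in the fit over 12 libraries.

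Of 20 tested immediate early genes for other transcription regulators, 5 rose and 4 fell (median 0.13), where 21.3% and 19.7% of all tested genes did. NR4A1, an orphan nuclear receptor, was at 11, 13.9 and 14.2 CPM in DMSO and at 26.7, 18.6 and 22 CPM with both (log2 0.78, SE 0.16, adjusted p = 0.00138, edgeR). HES1, a NOTCH-responsive repressor, fell from 53.9 ± 4.59 to 32.3 ± 1.24 CPM (log2 -0.74, SE 0.12, adjusted p = 0.000249), and ID3, an inhibitor of bHLH factors, fell by 0.67 and IER5 by 0.57 on the log2 scale. Without combination replicate 1, 3 of these genes rose. With TH10785 alone, HES1 was at 37.7 to 41.4 CPM, below its 48.7 to 57.4 CPM in DMSO. NR4A1 was at 17.8 to 18.9 CPM, above its DMSO range, and ID3 and IER5 overlapped DMSO. None of these was called with TH10785 in the fit over 12 libraries.

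Immediate early genes whose products are no transcription factors gave 8 that rose and 5 that fell of 17 (median 0.32). Of all tested genes, 21.3% rose and 19.7% fell. GADD45A, a growth arrest and stress gene, averaged 64 ± 6.02 CPM in DMSO and 138 ± 22.3 CPM with both (log2 1.11, SE 0.13, adjusted p = 1.22e-05, edgeR). TNFAIP3, which restrains NF-kB, rose by 1.48, from 3.24 to 4.07 CPM in DMSO to 6.83 to 12.3 CPM with both. BTG2, an antiproliferative gene, averaged 76.5 ± 2.53 CPM in DMSO and 43.2 ± 5.03 CPM with both (log2 -0.82, SE 0.12, adjusted p = 6.57e-05). Its relative BTG1 rose by 1.45, and its value with the GC and length offsets was 0.86 and missed the threshold (adjusted p = 0.0704). Directions were mixed in this list.

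Around EGR1 and FOS, 7 genes for cofactors of serum response factor and corepressors of EGR1 were tested. Of these, 2 rose and 1 fell (median -0.02), where 21.3% and 19.7% of all tested genes did. MRTFA, the actin-sensing cofactor, was at 143, 169 and 176 CPM in DMSO and at 69.8, 66.4 and 74.4 CPM with both (log2 -1.21, SE 0.13, adjusted p = 5.77e-06, edgeR). ELK3, an ETS cofactor, was at 38, 43.4 and 49.3 CPM in DMSO and at 117, 65.3 and 88.9 CPM with both (log2 1.05, SE 0.20, adjusted p = 0.000749). NAB1, an EGR1 corepressor, rose by 0.69, and its value with the GC and length offsets was 0.15 (adjusted p = 0.358). In that fit MRTFA was at -0.81 and ELK3 at 0.71, both called. The number of these cofactor genes that rose was 1 without DMSO replicate 2 or combination replicate 3, and the number that fell was 2 without TH10785 replicate 3 and with the offsets. Of 22 tested genes for ERK, JNK and p38 pathway kinases, 4 rose and 5 fell (median 0.00 to 2 decimals). The shares over all tested genes were again 21.3% and 19.7%. MAP2K2, which encodes the ERK kinase MEK2, averaged 290 ± 28.2 CPM in DMSO and 178 ± 6.18 CPM with both (log2 -0.70, SE 0.13, adjusted p = 0.000543). RPS6KA1 fell by 0.67 and RPS6KA2 rose by 0.67, 2 genes for ribosomal S6 kinases downstream of ERK. MAP2K6 was low throughout, at 1.28 to 2.81 CPM in DMSO and 0.145 to 0.859 CPM with both, and its log2 difference was -2.10 (SE 0.48, adjusted p = 0.00271). With the offsets the values were -0.32 for MAP2K2, -0.39 for RPS6KA1, 0.89 for RPS6KA2 and -2.68 for MAP2K6, all called. The number of kinase genes that rose was 1 without DMSO replicate 1 and 6 without TH10785 replicate 3. RNA levels do not report the phosphorylation by which these kinases act.

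Downstream, 26 tested genes known as AP-1 targets gave 15 that rose and 4 that fell with both compounds. Of all tested genes, 21.3% rose and 19.7% fell. The median of the 26 was 0.59, beside 0.04 over all tested genes. The levels of MMP3, a matrix protease, were 5.32, 6.05 and 6.42 CPM in DMSO, 12.3, 7.97 and 11.4 with TH10785, and 11.8, 13.5 and 13.1 with PNKP1i. With both compounds they were 299, 68.1 and 70.4 CPM. The log2 fold change of MMP3 against DMSO was 4.62 (SE 0.47, adjusted p = 5.12e-06, edgeR), and 3.55 without combination replicate 1. AREG, a ligand of the EGF receptor, was at 2.63, 3.05 and 3.1 CPM in DMSO and 18.7, 9.94 and 11.4 CPM with both (log2 2.18, SE 0.24, adjusted p = 8.12e-06). AREG was also called with TH10785 alone, at 6.01, 6.26 and 7.43 CPM (log2 1.16, SE 0.24, adjusted p = 0.0377), as was the protease gene MMP9 (1.25, SE 0.22, adjusted p = 0.0111). VEGFA, the angiogenic growth factor, rose by 1.32 with both compounds (SE 0.15, adjusted p = 9.11e-06). CXCL8, the neutrophil chemokine, was near the limit of detection in DMSO, at 0.12 to 0.305 CPM, and at 5.96 to 15.8 CPM with both. The 4 targets with the smallest p, MMP3, AREG, VEGFA and CXCL8, all rose, and none of the 4 that fell is named here. With PNKP1i alone 1 target was called, lower than in DMSO, and this call was lost without DMSO replicate 2. TH10785 alone called 2 of the 26 and PNKP1i 1, where 0.561% and 0.197% of all tested genes were called. In the other 5 lists of related genes neither single compound gave a call. The lists were drawn up with earlier results of these libraries known, so their counts describe the libraries and support nothing further.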

How the data were processed

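The raw read counts per gene deposited by the authors were used, and their table of normalized values was not. Per the submitters' processing notes, HISAT2 2.0.5, HTSeq 0.6.1, DESeq2 1.30.1 and GRCh38/hg38 were used; which annotation was counted, and whether by strand, is not stated there. Identifiers matched GENCODE 29, which gave positions, exon lengths and GC content. With edgeR 4.0.16 (R 4.3.3), genes were kept by filterByExpr (minimum count 10, minimum total 15), scaled by TMM and fitted by robust quasi-likelihood with a mean for each of 4 groups over 12 libraries. Tests were two-sided, adjusted by Benjamini-Hochberg over 17290 genes in each of 7 comparisons, and called at an adjusted p under 0.05; intervals are 95%. Log2 CPM used a prior count of 2, and the biological coefficient of variation was 15.4%. The script was tested on simulated data. Depth was 16225339 to 21546369 counts per library, so that genes with few reads, FOSB above all, are measured imprecisely.

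As alternatives, the fits were repeated with upper-quartile or RLE scaling, with limma-voom (limma 3.58.1), with DESeq2 1.42.0, with no or a stricter low-count filter, with only the groups compared, with the replicate number as a block, with offsets from splines (5 degrees of freedom) of GC content and length, and with each library left out in turn. The genes named are the 10 in every comparison, of each list up to 4 called genes with the smallest p for both compounds against DMSO, and for each of the 10 the most similar gene; MMP9, AREG with TH10785, and the low markers COL1A2, SP7 and BGLAP were named after their values were seen. One result is not reported here. The 10 genes and all lists were chosen with earlier results of these data known.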

Additional observations from a re-analysis of the deposited data

Results flagged for a closer look

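FOSL1 was the 1 gene of the 10 that passed the test of the interaction, which asks whether the response to one compound differs with the other present. Over all tested genes 30.6% passed. The FOSL1 interaction was 0.87 on the log2 scale (adjusted p = 0.0357, edgeR's quasi-likelihood test, Benjamini-Hochberg). All 3 combination libraries lay above the 9 others, at 142, 77.1 and 81.2 CPM. The call held in 9 of 20 alternatives, where the value ran from 0.52 to 1.34. It was lost with limma-voom (adjusted p = 0.0536), with the replicate block (0.0537) and in 9 of 12 fits that left out a library, with adjusted p from 0.0552 without PNKP1i replicate 3 to 0.107 without combination replicate 1.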

How the results depend on the processing

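Of 1460 values of the 10 genes over 21 alternatives (20 for the interaction), 1412 kept their side of the threshold and, where called, their direction. A further 27 lost and 20 gained a call, and 1 reversed: JUNB with both compounds against TH10785 was -0.05 in the fit reported and 0.36 (adjusted p = 0.0448, edgeR) with GC and length offsets. No scaling moved the median of all tested genes by over 0.1. Of the 10 genes, TH10785 against DMSO called 0 in the fit reported and 1 (ATF3) both with no low-count filter and with DESeq2. PNKP1i against DMSO called 0, and 1 (EGR1, adjusted p = 0.00947) with no low-count filter, 3 with only the groups compared (FOS 0.029, JUNB 0.00833 and EGR1 0.0329), and 0 to 1 when each library was left out (JUNB, 0.0476, without TH10785 replicate 3). TH10785 against PNKP1i called 0, and 0 to 1 with each library left out (FOS, -0.85, adjusted p = 0.0284, without TH10785 replicate 3). The interaction called 1, and 0 with limma-voom, 0 with the replicate block, 2 with GC and length offsets (FOSL1 and MAFF, the latter 0.99, adjusted p = 0.0347) and 0 to 1 with each library left out. With each library left out, both compounds called 7 to 8 of the 10 against DMSO, 6 to 7 against TH10785 and 4 to 7 against PNKP1i. The same fits called 5149 to 8468, 5647 to 7603 and 6169 to 9100 of all tested genes, in that order.

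Over all tested genes, TH10785 against DMSO called 97, and 513 with no low-count filter, 318 with DESeq2, 62 with the replicate block, 293 with GC and length offsets and 44 to 178 with each library left out. PNKP1i against DMSO called 34, and 189, 111, 15, 86 and 7 to 301 in the same order, and 1150 with only the groups compared. TH10785 against PNKP1i called 156, and 243 with DESeq2, 256 with GC and length offsets, 299 without the low-count filter and 68 to 556 with each library left out. The interaction called 5289, and 3268 with GC and length offsets and 3492 to 6140 with each library left out. The causes were not tested.

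Replicate numbers did not pair the libraries: the deviations of 18 pairs with the same number correlated at -0.25 to 0.13, those of 36 other pairs at -0.26 to 0.3, and 1 of 12 libraries was best matched by its own number. With the replicate block, the FOSL1 interaction had an adjusted p of 0.0537. Depth limits FOSB, at 11 to 51 counts per library.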
